A study of Mus musculus with 12 samples.

Results

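AMPA receptors carry most of the fast excitatory current at hippocampal synapses, and 9 genes of this receptor were examined here on the ribosomes of CA1 pyramidal neurons lacking FMRP. The genes were chosen by name: the pore-forming subunits Gria1, Gria2, Gria3 and Gria4, the transmembrane AMPA receptor regulatory proteins (TARPs) Cacng2, Cacng3 and Cacng8, and the cornichons Cnih2 and Cnih3. Each was found once among the 24079 genes of the count table, and all 9 were among the 17823 genes that were tested, those with a total of 15 reads or more. The receptor is a tetramer of GluA subunits. Its edited GluA2 subunit, the product of Gria2, makes the channel nearly impermeable to calcium. TARPs bring receptors to the synapse and slow their closing, and cornichons escort them out of the endoplasmic reticulum and also slow them. In fragile X research these receptors are followed because their removal from the synapse expresses mGluR-dependent long-term depression, which is enhanced in mice without FMRP.

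The samples were 6 wild-type and 6 Fmr1-/y libraries of RNA immunoprecipitated with HA-tagged Rpl22, a ribosomal protein, from whole hippocampi. All animals were male littermates aged 2 to 6 months that carried Wfs1-CreERT2 and RiboTag, received tamoxifen on 3 days and were used 1 week later. Both groups thus carried the same transgenes and received the same agent. The mice are described as C57BL/6J, but the crossed lines came from different backgrounds, so alleles linked to Fmr1 or still segregating cannot be told apart from the knockout. The tag is switched on by Cre under a Wfs1 transgene, so cells other than CA1 pyramidal neurons that express Wfs1 would be tagged too, and each library was a pool of 4 to 6 mice. Between 39400980 and 65565479 reads per library were counted on genes. Reads on Fmr1, the targeted gene, numbered 1971 to 2608 per wild-type library, whereas 5 of the Fmr1-/y libraries held 0 and the remaining one 1. Wfs1 measured 1272 CPM (counts per 1000000 reads, scaled by edgeR's TMM method) in wild-type libraries, and Camk2a, the most abundant CA1 pyramidal marker, measured 6207 CPM. None of the 51 markers of 9 cell types was at 0 in any library. In wild-type libraries the most abundant marker of each other type was Rgs14 of CA2 at 160 CPM, Dsp of dentate granule cells at 27.4 CPM, Gad1 of interneurons at 68.2 CPM, Slc1a3 of astrocytes at 242 CPM and Mbp of oligodendrocytes at 655 CPM. Pdgfra of oligodendrocyte precursors measured 25.9 CPM, Csf1r of microglia 30.2 CPM and Flt1 of endothelium 9.80 CPM. Whether such reads came from other cells or from low expression in CA1 neurons was not tested. The study's immunostaining placed HA in CA1 pyramidal cells and not in CA2, GABAergic, astrocytic or microglial cells, and input RNA was not analysed here. In such bulk samples fewer cells of a type and less RNA per cell cannot be told apart.

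None of the 9 AMPA receptor mRNAs had an adjusted p under 0.05 between the genotypes when edgeR's quasi-likelihood test was applied to all genes with Benjamini-Hochberg adjustment, where 0.0224% of the genes tested were called. Gria1, Gria2 and Cacng8 had an unadjusted p under 0.05, each with a lower mean in Fmr1-/y libraries, at 86.0% to 89.2% of wild type. The other 6 lay between 90.2% and 104% of wild type. Of all genes tested, 7.96% reached an unadjusted p under 0.05. In DESeq2's Wald test and in limma voom no member had an adjusted p under 0.05 either, and each of these tools gave 3 members with an unadjusted p under 0.05. DESeq2 called 0.571% of the genes to which it gave an adjusted p.

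**Figure D1:**
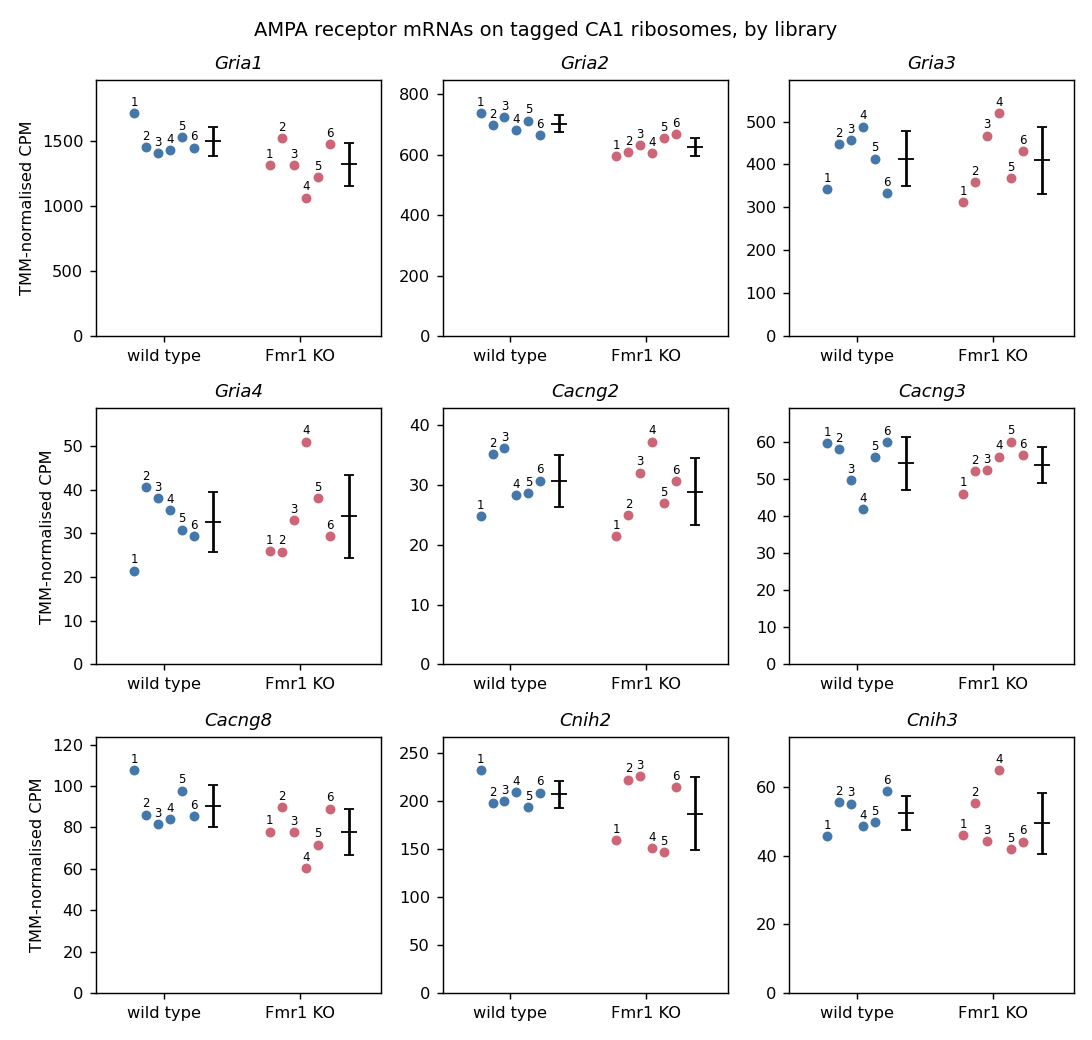
Level of each AMPA receptor mRNA in every library, in TMM-normalised CPM with axes from 0. Points are libraries with their replicate numbers, and bars give the mean and SD of 6 libraries. The wild-type and Fmr1-/y points overlap in every panel, least for Gria2, where 5 Fmr1-/y libraries lie below all wild-type libraries, and Fmr1-/y replicate 4 is the highest library for Gria3, Gria4, Cacng2 and Cnih3.

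Gria1 (Entrez 14799, chromosome 11 from 57011571 to 57330244, GRCm38) encodes GluA1, the subunit whose delivery to synapses accompanies long-term potentiation in CA1. Its lowest, median and highest levels were 1408, 1451 and 1715 CPM in wild-type libraries and 1065, 1317 and 1522 CPM in Fmr1-/y libraries. The highest value belonged to wild-type replicate 1 and the lowest to Fmr1-/y replicate 4, and 4 of the 6 Fmr1-/y libraries were below every wild-type library while the other 2 lay within the wild-type range. The means were 1497 ± 114 CPM and 1320 ± 168 CPM (SD, n = 6 each). Gria1 thus stood at 88.2% of its wild-type level, with a 95% interval of 78.4% to 99.1% (log2 fold change -0.18 with a standard error of 0.08, unadjusted p = 0.037, adjusted p = 0.589 in edgeR). The unadjusted p stayed under 0.05 in 6 of the 12 fits that left out 1 library, and without Fmr1-/y replicate 4 the log2 fold change was -0.13.

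Gria2 (Entrez 14800, chromosome 3 from 80681450 to 80804227), the gene of GluA2, varied least between libraries. It ran from 665 CPM through a median of 706 CPM to 738 CPM in wild-type libraries, and from 595 CPM through 620 CPM to 668 CPM in Fmr1-/y libraries. All Fmr1-/y libraries were below the wild-type median. The genotypes overlapped through 1 library each, Fmr1-/y replicate 6 and wild-type replicate 6. The means were 704 ± 27.2 CPM and 628 ± 29.9 CPM (SD, n = 6 each). Gria2 was at 89.2% of wild type with a 95% interval of 82.7% to 96.2% (log2 fold change -0.17 with a standard error of 0.05, unadjusted p = 0.0053, adjusted p = 0.378 in edgeR), rank 247 of the genes tested by p. In DESeq2 its adjusted p was 0.108. Leaving out each library in turn kept the unadjusted p between 0.0035 and 0.014. Complete separation of the genotypes was seen for 0.623% of the genes tested and for none of these 9.

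Gria3 (Entrez 53623, chromosome X from 41400819 to 41678601) encodes GluA3, which pairs with GluA2 in receptors that cycle constitutively. Its lowest, median and highest levels were 333, 430 and 488 CPM in wild-type and 312, 400 and 520 CPM in Fmr1-/y libraries. The Fmr1-/y range enclosed the wild-type range at both ends, with replicate 1 lowest and replicate 4 highest. The fitted level was 99.0% of wild type with a 95% interval of 83.3% to 118% (log2 fold change -0.01 with a standard error of 0.12, adjusted p = 0.990 in edgeR), and the sign changed with the scaling and with single libraries.

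Gria4 (Entrez 14802, chromosome 9 from 4417893 to 4796234), whose product GluA4 is abundant in many interneurons and early in development, was the scarcest subunit. Its levels ran from 21.5 CPM through 33.1 CPM to 40.5 CPM in wild-type and from 25.8 CPM through 31.1 CPM to 50.9 CPM in Fmr1-/y libraries. The ranges overlapped except for wild-type replicate 1 at the bottom and Fmr1-/y replicate 4 at the top. It was at 104% of wild type with the widest interval of the 9 genes, 81.6% to 133% (log2 fold change 0.06 with a standard error of 0.17, adjusted p = 0.970 in edgeR). Without Fmr1-/y replicate 4 the log2 fold change was -0.10. Interneuron markers, for which all 9 of 9 genes were detected, summed to 117 to 241 CPM in wild-type and 127 to 180 CPM in Fmr1-/y libraries. The 4 oligodendrocyte precursor markers summed to 49.4 to 67.9 CPM and 46.3 to 65.9 CPM, with Fmr1-/y replicate 4 highest in its group. Wild-type replicate 4 had the highest sum of all libraries for both lists. Its Gria4 level was 35.4 CPM, below the wild-type maximum of 40.5 CPM. By interneuron markers Fmr1-/y replicate 1 was highest in its group at 180 CPM, and its Gria4 level of 26.0 CPM was the third lowest of all libraries. Wild-type replicate 1, lowest of all libraries for Gria4 at 21.5 CPM, also had the lowest interneuron sum, 117 CPM. Fmr1-/y replicate 4, highest of all libraries for Gria4 at 50.9 CPM, had an interneuron sum of 165 CPM. The part of these cells in the Gria4 counts was not tested.

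Cacng8 (Entrez 81905, chromosome 7 from 3394042 to 3416266) encodes gamma-8, the TARP most typical of the hippocampus. Its lowest, median and highest levels were 81.4, 85.8 and 108 CPM in wild-type and 60.3, 77.8 and 89.9 CPM in Fmr1-/y libraries. As for Gria1, wild-type replicate 1 was highest, Fmr1-/y replicate 4 was lowest and 4 Fmr1-/y libraries were below every wild-type library. Means of 90.4 ± 10.2 CPM and 77.7 ± 11.1 CPM (SD, n = 6 each) gave 86.0% of wild type with a 95% interval of 74.9% to 98.7%. The log2 fold change was -0.22 (standard error 0.09, unadjusted p = 0.034, adjusted p = 0.575 in edgeR). Its unadjusted p was under 0.05 in 8 of the 12 fits without 1 library, and without Fmr1-/y replicate 4 the log2 fold change was -0.15.

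The other TARPs were less abundant and overlapped fully or nearly so. Cacng3 (Entrez 54376, chromosome 7 from 122671744 to 122769393), the gene of gamma-3, ran from 42.0 to 60.0 CPM in wild-type libraries with a median of 57.1 CPM, and from 46.2 to 60.2 CPM in Fmr1-/y libraries with a median of 54.3 CPM. It was at 99.4% of wild type with a 95% interval of 87.3% to 113% (log2 fold change -0.01 with a standard error of 0.09, adjusted p = 0.991 in edgeR), and its sign changed with the scaling and with single libraries. Cacng2 (Entrez 12300, chromosome 15 from 77991919 to 78120220) encodes stargazin, the founding TARP. Its lowest, median and highest levels were 24.8, 29.6 and 36.1 CPM in wild-type and 21.4, 28.8 and 37.2 CPM in Fmr1-/y libraries, so the Fmr1-/y range enclosed the wild-type range. Cacng2 was at 94.2% of wild type with a 95% interval of 78.8% to 113% (log2 fold change -0.09 with a standard error of 0.12, adjusted p = 0.934 in edgeR). The value depended on single libraries, with a log2 fold change of -0.17 without Fmr1-/y replicate 4 and of -0.01 without Fmr1-/y replicate 1.

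Cnih2 (Entrez 12794, chromosome 19 from 5092868 to 5098521) was the more abundant cornichon by reads. Its levels lay close together in wild-type libraries, from 193 CPM through a median of 204 CPM to 232 CPM. In Fmr1-/y libraries they ran from 147 CPM through 187 CPM to 226 CPM. Replicates 1, 4 and 5 were below every wild-type library and replicates 2, 3 and 6 lay within the wild-type range. The coefficient of variation was 6.67% in wild-type and 20.3% in Fmr1-/y libraries, a difference in spread that was not tested. Cnih2 was at 90.2% of wild type with a 95% interval of 77.3% to 105% (log2 fold change -0.15 with a standard error of 0.11, adjusted p = 0.804 in edgeR). Its log2 fold change was -0.09 without Fmr1-/y replicate 4 and likewise without replicate 5. Cnih3 (Entrez 72978, chromosome 1 from 181350459 to 181460641) ran from 45.8 CPM through 52.5 CPM to 58.8 CPM in wild-type and from 41.8 CPM through 45.1 CPM to 64.9 CPM in Fmr1-/y libraries. Its highest library was Fmr1-/y replicate 4, while 3 Fmr1-/y libraries were below every wild-type library. Cnih3 was at 94.5% of wild type with a 95% interval of 81.3% to 110% (log2 fold change -0.08 with a standard error of 0.10, adjusted p = 0.919 in edgeR). That log2 fold change was -0.18 without Fmr1-/y replicate 4 and -0.04 without Fmr1-/y replicate 5. It was -0.05 without Fmr1-/y replicate 3 or 6 or wild-type replicate 6.

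**Figure D2:**
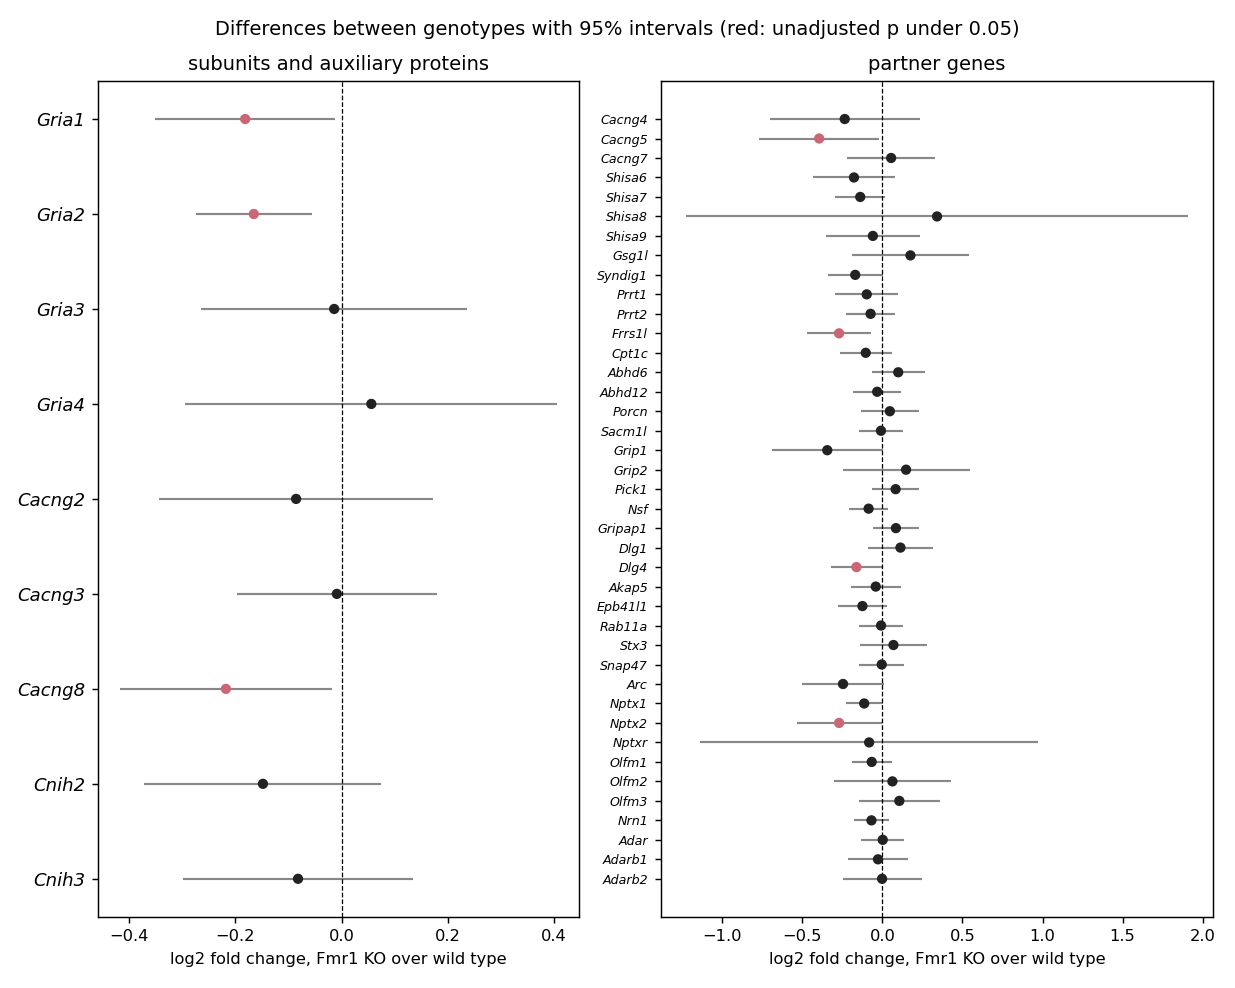
Log2 fold change of Fmr1-/y over wild type with its 95% interval from edgeR's fit, for the 9 subunits and auxiliary proteins (left) and the 40 partner genes (right), on axes of different scale. Red points mark an unadjusted p under 0.05: Gria1, Gria2 and Cacng8 on the left and Cacng5, Frrs1l, Dlg4 and Nptx2 on the right, all below 0, and no gene in the plot had an adjusted p under 0.05.

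Fitted log2 fold changes were below 0 for 8 of the 9 genes, against 48.6% of all genes tested. Gria3 and Cacng3, 2 of these 8, were above 0 when library totals replaced TMM, where 6 of 9 were below 0. The median log2 fold change of the 9 was -0.09, beside 0.0042 over all genes tested. Abundant genes are measured more precisely, so the 6269 genes with a mean level at or above that of Cacng2, the lowest of the 9, were also counted. Of these, 53.6% had a log2 fold change below 0 and 9.08% an unadjusted p under 0.05, and their median log2 fold change was -0.0079. The 95% intervals of the 9 genes reached down to 74.9% of wild type, for Cacng8, and up to 133%, for Gria4. For Gria1, Gria2 and Cacng8 the intervals before adjustment did not include equality.

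Levels of different genes were compared per kilobase of gene length, taking the union of GENCODE exons. Gria1 came first with 248 ± 18.9 CPM per kb in wild-type libraries (SD, n = 6), followed by Cnih2 with 151 ± 10.1 CPM per kb. Neither overlapped with its neighbour in the order. Gria2 with 45.3 ± 1.75, Gria3 with 41.9 ± 6.45 and Cacng8 with 38.6 ± 4.33 CPM per kb formed a middle group in which neighbouring ranges overlapped. Cacng3 with 19.6 ± 2.55 and Cnih3 with 19.0 ± 1.80 CPM per kb overlapped as well, and so did Cacng2 with 5.55 ± 0.785 and Gria4 with 5.16 ± 1.09 CPM per kb at the low end. In Fmr1-/y libraries the order was the same except that Gria3 and Gria2 changed places and so did Gria4 and Cacng2, which are overlapping neighbours in both genotypes. The choice of gene length mattered for Gria3, Cacng8 and Gria2, whose exon unions of 9859, 2345 and 15548 bases are longer than their longest curated RefSeq transcripts of 5192, 1380 and 10371 bases. With the latter lengths Gria3 measured 79.6 and Gria2 67.9 CPM per kb. Cacng8 then measured 65.5 CPM per kb, and the upper and lower places of the order stayed as they were apart from neighbours that overlap.

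**Figure D3:**
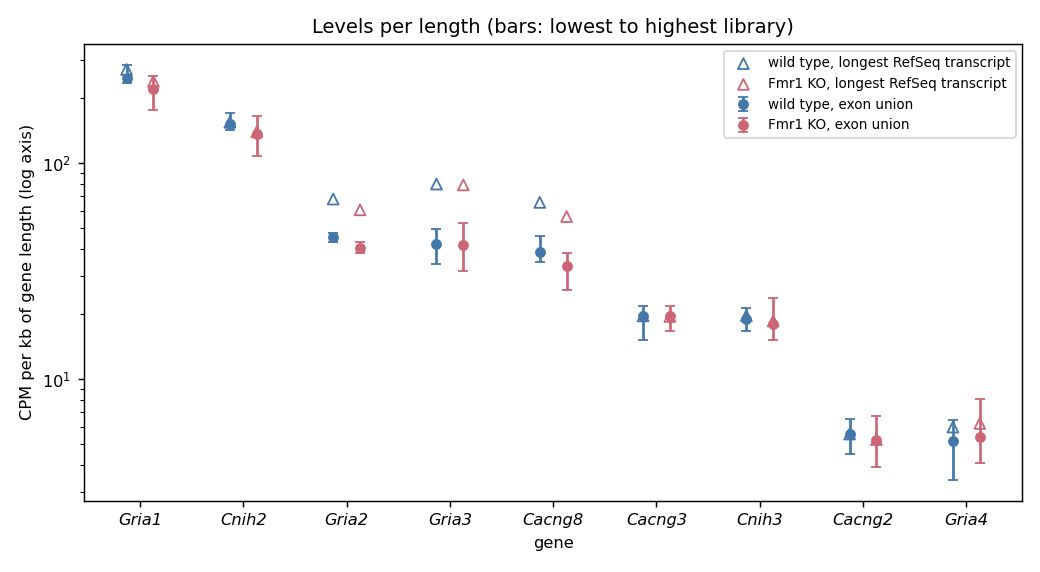
Level per kilobase of gene length for each gene and genotype, on a log axis, in the order of the wild-type means. Circles are means with bars from the lowest to the highest library, using the union of exons, and open triangles are means using the longest RefSeq transcript. Gria1 and Cnih2 lead with both lengths, and Gria2, Gria3 and Cacng8 move up with the shorter length.

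Within the pore, Gria1 made up 72.8 ± 2.63% of the summed per-kilobase level of the 4 subunits in wild-type and 71.3 ± 4.32% in Fmr1-/y libraries (SD, n = 6 each). Gria2 accounted for 13.3 ± 0.400% and 13.3 ± 1.01%, and Gria3 for 12.4 ± 2.09% and 13.7 ± 3.10%. The share of Gria4 was 1.53 ± 0.356% and 1.79 ± 0.636%. With RefSeq transcript lengths the wild-type share of Gria1 was 63.7% and that of Gria3 18.8%. The ratio of Gria1 to Gria2 reads does not depend on a length when genotypes are compared, and it was 2.13 ± 0.126 in wild-type and 2.11 ± 0.268 in Fmr1-/y libraries (SD, n = 6 each). The ratio ran from 1.76 to 2.50 in Fmr1-/y libraries against 1.94 to 2.32 in wild-type ones. Among the TARPs, Cacng8 held 60.5 ± 3.13% of the per-kilobase level in wild-type and 57.2 ± 5.20% in Fmr1-/y libraries, and Cacng3 held 30.7 ± 2.44% and 33.7 ± 3.53%. Cnih2 made up 88.8 ± 1.33% and 88.0 ± 3.17% of the cornichons. In every class the ranges of the genotypes overlapped. These are shares of ribosome-bound mRNA, and reads counted per gene do not separate flip from flop exons or edited from unedited GluA2.

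The 9 genes did not all vary together from library to library. Gria1 and Cacng8 did, and ranked the 12 libraries alike except for the order of Fmr1-/y replicates 1 and 3. They do not count as separate observations. Fmr1-/y replicate 4 had the lowest level of all 12 libraries for Gria1 and Cacng8, the second lowest for Gria2 and Cnih2, and the highest for Gria3, Gria4, Cacng2 and Cnih3. Its deviations from the genotype mean ran from -0.35 on the log2 scale for Cacng8 to 0.63 for Gria4. Wild-type replicate 1 went the opposite way, with the highest level of the 12 for Gria1, Gria2, Cacng8 and Cnih2, the lowest for Gria4 and the second lowest for Cacng2. Fmr1-/y replicate 1 was lowest of the 12 for Gria2, Gria3 and Cacng2. Coefficients of variation within wild-type libraries ran from 3.87% for Gria2 through 7.63% for Gria1 to 21.1% for Gria4, and within Fmr1-/y libraries from 4.76% for Gria2 to 28.3% for Gria4.

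The mean log2 CPM of the 8 CA1 pyramidal markers moved with Gria1 and Cacng8. It was highest in wild-type replicate 1, at 8.73, and lowest in Fmr1-/y replicate 4, at 8.13. Between the genotypes it measured 8.54 ± 0.120 in wild-type and 8.39 ± 0.159 in Fmr1-/y libraries (SD, n = 6 each), a difference of -0.15. All 8 of 8 markers had a log2 fold change below 0, from -0.27 for Wfs1 to -0.05 for Slc1a1, and 3 of them had an unadjusted p under 0.05 with a lowest adjusted p of 0.410 in edgeR. Their summed level was 7937 to 9748 CPM in wild-type and 7587 to 9070 CPM in Fmr1-/y libraries. All 5 astrocyte markers were above 0 in log2 fold change, with sums of 554 to 705 CPM and 623 to 979 CPM, and so were all 4 endothelial markers, with sums of 21.3 to 33.9 CPM and 27.6 to 44.6 CPM. No marker had an adjusted p under 0.05, and 11 of the 51 had an unadjusted p under 0.05, beside 7.96% of all genes tested.

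Set against the CA1 marker mean of the same library, the difference between the genotype means was -0.04 on the log2 scale for Gria1, -0.02 for Gria2 and -0.07 for Cacng8. Without that reference the same differences of mean log2 CPM were -0.19, -0.17 and -0.22. Cnih2 was at -0.02 against the markers, and the other 5 were above 0, with Gria3 at 0.13, Gria4 at 0.19, Cacng3 at 0.15 and both Cacng2 and Cnih3 at 0.05. Relative to the CA1 markers 4 of the 9 genes were thus below 0. The ratio removes the same marker difference of -0.15 from every gene. This count therefore follows from that shift and does not compare the 9 genes with other genes. When the marker mean entered edgeR's fit as a covariate, a fit chosen after seeing the data, the log2 fold change was -0.04 for Gria1 (adjusted p = 0.779) and -0.05 for Cacng8 (adjusted p = 0.804). That of Gria2 was -0.13 (unadjusted p = 0.019, adjusted p = 0.502). Of these 3 genes Gria2 changed least in this fit, whereas in the ratio its difference of -0.02 was the smallest of the 3. The marker mean itself differed between the genotypes, so this fit does not isolate genotype from marker level. In that fit 8 of the 9 genes were below 0, and only Cacng3 was above, at 0.064. Gria3 was at -0.13, Gria4 at -0.23 and both Cacng2 and Cnih3 at -0.18. The signs of these 4 were opposite to those in the ratio, and no member had an adjusted p under 0.05.

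**Figure D4:**
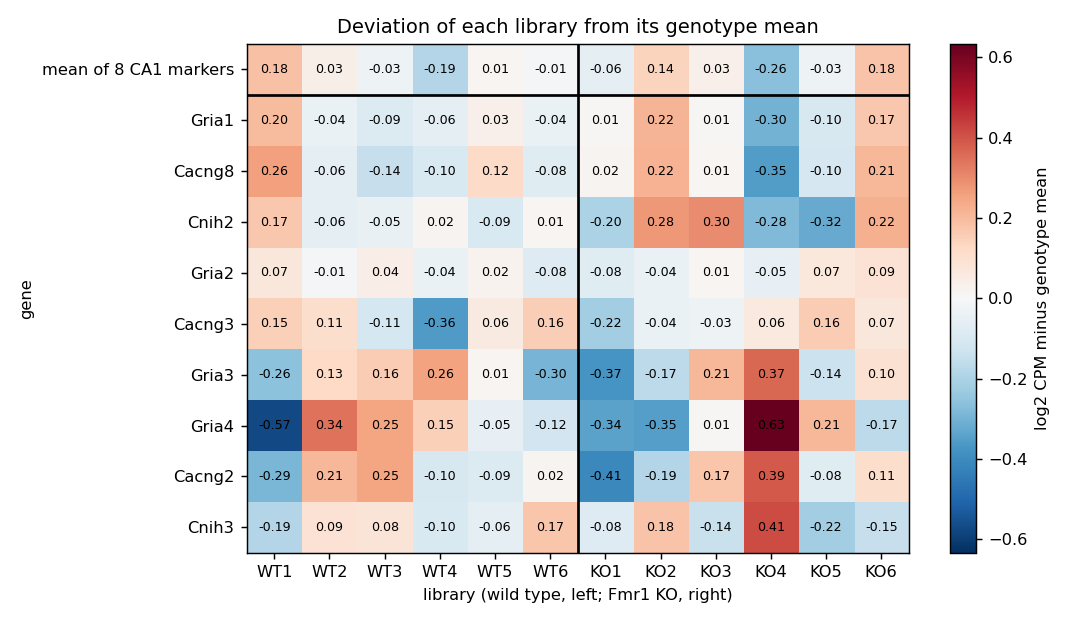
Deviation of each library from the mean of its genotype, in log2 CPM, for the mean of 8 CA1 markers (top row) and the 9 genes, with wild-type libraries on the left and Fmr1-/y libraries on the right. Red is above and blue below the genotype mean. In Fmr1-/y replicate 4 (KO4) Gria1 is at -0.30 and Cacng8 at -0.35 while Gria4 is at 0.63, and wild-type replicate 1 (WT1) shows the opposite signs.

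The proteins that assemble, carry and cluster AMPA receptors were read from the same fit, using a list of 40 partner genes, all of which were tested. By adjusted p, 0 of the 40 passed 0.05 in edgeR or in DESeq2. In edgeR 4 of the 40 had an unadjusted p under 0.05, all with a lower mean in Fmr1-/y libraries, while DESeq2 gave 6. In edgeR the share of all genes tested with such a p was 7.96%, to which 4 of 40 is close. That share was not counted for DESeq2. The median log2 fold change of the 40 was -0.05, and 27 were below 0 and 13 above, beside 48.6% of all genes tested below 0. No partner gene separated the genotypes completely.

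Frrs1l, an endoplasmic reticulum protein that helps GluA subunits to assemble, had the lowest p of the list. It ran from 82.6 CPM through a median of 121 CPM to 123 CPM in wild-type and from 80.8 CPM through 94.8 CPM to 112 CPM in Fmr1-/y libraries, and wild-type replicate 6 lay far below the others of its group. Frrs1l reached 82.9% of the wild-type level (log2 fold change -0.27 with a standard error of 0.10, unadjusted p = 0.012, adjusted p = 0.448 in edgeR). Dlg4, the gene of the scaffold PSD-95 to which TARPs bind, ran from 848 to 1068 CPM in wild-type and from 713 to 997 CPM in Fmr1-/y libraries. It reached 89.4% of the wild-type level (log2 fold change -0.16 with a standard error of 0.08, unadjusted p = 0.047, adjusted p = 0.621). Nptx2, a secreted pentraxin that clusters GluA4-containing receptors, ran from 28.0 to 45.6 CPM and from 23.7 to 37.8 CPM. It reached 82.9% of the wild-type level (log2 fold change -0.27 with a standard error of 0.13, unadjusted p = 0.047, adjusted p = 0.621), and -0.18 on the same scale once wild-type replicate 1 was left out. Cacng5, a further member of the TARP family, was low. Its mean over 6 wild-type libraries was 8.69 ± 2.46 CPM (SD), and over 6 Fmr1-/y libraries 6.60 ± 1.44 CPM. It stood at 76.1% of the wild-type level (log2 fold change -0.39 with a standard error of 0.18, unadjusted p = 0.040, adjusted p = 0.5999 in edgeR). Cacng5 had a log2 fold change of -0.24 once wild-type replicate 4 was left out. With the CA1 marker mean as covariate the log2 fold changes were -0.25 for Frrs1l, -0.03 for Dlg4, -0.20 for Nptx2 and -0.63 for Cacng5. All 4 genes overlapped between the genotypes.

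By class, 2 of the 3 other TARPs were below 0 in log2 fold change, and Cacng7, the highest of them per kilobase, was at 104% of wild type. Of the 8 other auxiliary subunits 6 were below 0, and the highest per kilobase, Prrt2, was at 95.1%. The 6 assembly genes had a median of -0.02, with the lipase Abhd12 at 97.8%. The 13 scaffold and trafficking genes had a median of -0.0079, and Nsf, the ATPase that binds the GluA2 tail and disassembles SNARE complexes, was at 94.2%. The 7 extracellular clustering genes had a median of -0.07, with Olfm1 at 95.5%. The 3 ADAR genes, which include that of the enzyme recoding the GluA2 pore, lay between -0.03 for Adarb1 and 0.0025 for Adar. Adar, the highest of them per kilobase, was at 100.2% of wild type and Adarb1 at 98.1%.

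In sequence the 4 pore subunits resemble each other in the length of their coding regions, 2649 to 2721 bases in GENCODE, while their GC content differs, from 36.8% in the longest Gria2 transcript to 48.5% in that of Gria1. The auxiliary genes are shorter, with coding lengths of 480 bases for Cnih2 to 1269 bases for Cacng8, and richer in G and C, from 51.2% for Cacng2 to 65.1% for Cacng8. The 3 genes with an unadjusted p under 0.05 spanned both ends of this range, Gria2 having the lowest and Cacng8 the highest GC content of the 9. The genes lie on 8 chromosomes, with Cacng3 and Cacng8 both on chromosome 7 but far apart. Annotated genes on the same strand overlapped the exons of these genes only as small RNA genes, by at most 111 bases, in Gria2, and protein-coding or antisense neighbours on the other strand were told apart by the stranded counting.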

How the data were processed

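The authors aligned 50-base single-end reads of stranded poly-A libraries with TopHat 2.1.1 and Bowtie 2.2.8 to mm10, discarded alignments with more than 3 mismatches, counted reads per gene with HTSeq 0.6.1p1 in union mode on the opposite strand, and deposited the counts without normalization. Which libraries shared a lane is not given in the sources used here. Columns were assigned to genotypes by their titles. Genes with at least 15 reads in total were kept, as in the study's methods, and tested with edgeR 4.0.16 in R 4.3.3 (TMM, quasi-likelihood fit, genotype only, Benjamini-Hochberg adjustment over all genes, threshold 0.05). Standard errors are the log2 fold change divided by the square root of F, and 95% intervals use the fit's degrees of freedom. DESeq2 1.42.0 and limma 3.58.1 voom were alternatives. The fit was tested on simulated data.

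The members and the lists of partners and markers were chosen with earlier results of these data known. Genes named are all members, Fmr1, partner genes with an unadjusted p under 0.05 or the highest level per kilobase of their class, and the most abundant marker of each list; other genes are named only for an extreme value or as neighbours in a comparison. Coordinates are RefSeq's and exon lengths GENCODE M21's, joined through Entrez identifiers, and both refer to GRCm38, which is mm10. Pools are biological replicates, so p-values measure the spread between pools. Members' read counts were at least 1129 per library, so that counting error is small beside that spread.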

Additional observations from a re-analysis of the deposited data

Results flagged for a closer look

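The highest and lowest library of each genotype was compared with its neighbours for 19 genes, 38 groups of 6 libraries. These genes were the members and the partner genes with an unadjusted edgeR p under 0.05 or the highest level per kilobase of their class. In 1 group the gap to the next library, divided by the group's range, was above Dixon's critical value of 0.625, where chance gives about 1.9. This was Frrs1l in wild-type libraries, with replicate 6 at 82.6 CPM against 115 to 123 CPM in the others and a ratio of 0.804. Among the members, the ratio came closest for wild-type replicate 1, at 0.609 for Gria1 and 0.602 for Cnih2, and these are below the critical value.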

How the results depend on the processing

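The 9 members were recomputed under 22 alternatives set with the design and 2 added after seeing the data. In all 24 no member and no partner gene had an adjusted p under 0.05. The threshold of 0.1 and the robust fit left the fold changes as they were. Of the 198 comparisons of a member with the other 22 alternatives, 179 kept the direction and 19 reversed it, all in Gria3, Gria4 or Cacng3, whose log2 fold changes were within 0.06 of 0. With library totals in place of TMM, Gria3 was at 0.0074 and Cacng3 at 0.018. Without the library numbered 4 in both groups Gria4 was at -0.071. With the CA1 marker mean as covariate Gria4 was at -0.23 and Cacng3 at 0.064. With each library left out, Gria3 ran from -0.094 to 0.054, Gria4 from -0.097 to 0.13 and Cacng3 from -0.073 to 0.032. The median of the members then ran from -0.13 to -0.06. The unadjusted p of Gria2 was under 0.05 in all 24, at most 0.019, and its adjusted p ran from 0.108 in DESeq2 to 0.690.

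Over all genes, 4 passed in edgeR, all lower. DESeq2 gave 84, with 53 lower and 31 higher, the filter of at least 10 reads in every library gave 1, the removal of both libraries numbered 4 gave 2, and the CA1 marker covariate gave 2. Single left-out libraries gave 2 to 6. The cause was not tested. Replicate numbers are shared by the genotypes, but deviations of same-numbered libraries correlated between -0.081 and 0.090 over all genes. Over genes with a mean log2 CPM above 5 the correlations were 0.38, -0.44, 0.44, 0.60, -0.01 and -0.03 for numbers 1 to 6. Since 3 of the 6 pairs were not above 0.1, the numbers are not taken as pairs. With the replicate block 4 genes passed, no member among them, and Gria2 had a log2 fold change of -0.17 and an adjusted p of 0.361.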
